A study of Mus musculus with 8 samples.

Results

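The data are 10 mouse genes of the Notch pathway and of the secretory fate switch that it controls, namely the receptors Notch1, Notch2 and Notch3, the ligands Jag1, Dll1 and Dll4, the nuclear factor Rbpj, the target Hes1 and the secretory factors Atoh1 and Gfi1. They were chosen by symbol, and all 10 were found by Ensembl identifier among the 45706 genes counted by RNA-Seq in crypts of the small intestine (SI) and of the colon (COL). Crypts are the epithelial pits in which intestinal stem and progenitor cells reside. They were released with EDTA from both tissues of 4 wild type C57BL/6N mice, mice 1 and 4 being female and mice 2 and 3 male, whose age is not given. This made 4 SI libraries (SI1 to SI4) and 4 COL libraries (COL1 to COL4), in which equal numbers mark the same mouse. The paper's crypt protocol, given for organoids, differs between the tissues. It takes the proximal small intestine and scrapes off the villi first, and it keeps the colon longer in a stronger EDTA solution. Effects of tissue and of isolation cannot be told apart here. No mouse carried a transgene or received a treatment. The labels number the last mouse 5, and it is called mouse 4 here. The comparison asks how SI and COL crypts differ in their ground state, before any oncogene is induced.

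Notch receptors are cut when they bind a ligand on a neighbouring cell, and the freed intracellular domain joins RBPJ on DNA to induce repressors such as Hes1. Hes1 shuts off Atoh1, so that cells with Notch activity become absorptive cells, while cells that express Atoh1 become secretory cells (goblet, Paneth, enteroendocrine or tuft) and display Dll1 and Dll4 to their neighbours. Gfi1 acts downstream of Atoh1 and directs secretory progenitors away from the enteroendocrine fate.

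Counts summed to between 15969428 and 32908060 per library, and the share of mitochondrial genes was small (4.83% to 7.35%) in 2 libraries of each tissue, SI1, SI4, COL3 and COL4, and large (22.7% to 50.8%) in the rest. Levels are given as CPM, counts per standard total after TMM scaling of the library sizes. Colonocyte markers (Car1, Slc26a3, Aqp8) summed to 162 to 556 CPM in SI and 3640 to 30625 CPM in COL, and small intestinal enterocyte markers (Alpi, Apoa1, Fabp1, Sis) to 31050 to 78516 CPM in SI and 9.53 to 90.6 CPM in COL. Of the SI libraries, SI1 had the lowest sums of proliferation markers (87.9 CPM against 223 to 402), stem cell markers (21.0 against 38.1 to 56.0) and Paneth markers (564 against 1719 to 3965). It also had the highest sum of enterocyte markers. SI4, the other SI library with a small mitochondrial share, came next to SI1 in each of these sums. Results are therefore also given without SI1. In RNA from whole crypts, fewer cells of a type and less RNA per cell cannot be told apart.

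SI and COL differed for 5 of the 10 genes at an adjusted p-value below 0.05 (edgeR's quasi-likelihood test, Benjamini-Hochberg adjustment over all 14491 genes tested), against 28.4% of all genes tested. The ligands Dll1 and Dll4 were higher in SI, a direction called for 15.5% of all genes. Hes1, Atoh1 and Gfi1 were higher in COL, a direction called for 12.9% of all genes. All 10 genes passed the filter on low counts. SI and COL values did not overlap for 6 of the 10 genes, which are the 5 named and Notch1, against 33.5% of all genes. The median log2 fold change, SI over COL, was -0.52 for the 10 genes and -0.09 for all genes tested. Without SI1, 7 of the 10 genes passed the threshold, with Notch3 and Jag1 added, against 22.3% of all genes. DESeq2 called 8 of them (3 higher in SI, 5 higher in COL) against 35.3% of all genes, and edgeR with the mitochondrial share as a covariate called 6 against 37.7%.

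**Figure D1:**
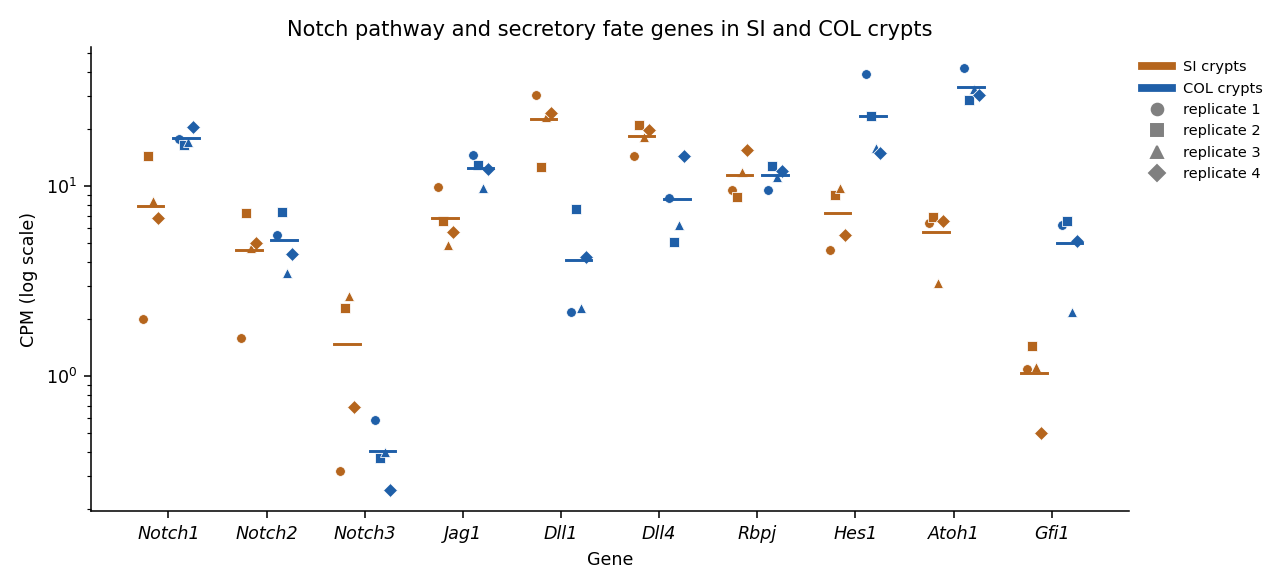
CPM of each of the 10 genes (log axis) in every library, with SI in orange, COL in blue, a symbol for each replicate (the donor mouse) and a bar for the mean of the 4 libraries. Orange and blue points are fully separate for Notch1, Dll1, Dll4, Hes1, Atoh1 and Gfi1.

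Among the receptors, none passed the threshold. Notch1 (chr2:26457903-26516663, minus strand, GRCm38), a main receptor of crypt progenitors, stood at 1.99, 14.4, 8.31 and 6.78 CPM in SI1 to SI4 and at 17.7, 16.5, 17.2 and 20.6 CPM in COL1 to COL4. Every COL library lay above every SI library, and the 4 SI libraries spread widely while the 4 COL libraries lay close together. The log2 fold change was -1.20 ± 0.47 (SE) with an adjusted p of 0.0772 (edgeR quasi-likelihood test). A fit blocked by donor mouse gave -1.46 (edgeR adjusted p = 0.0465), which brought the number of these genes past the threshold to 6, against 28.1% of all genes. Without SI1 it was -0.86 (adjusted p = 0.0827), and without SI2 it was -1.64 (adjusted p = 0.0198 by the same test). Notch1 shares exon sequence with 0610009E02Rik on the opposite strand, which held 4 to 34 counts against 44 to 984 for Notch1. The use of the strand in counting is not given in the sources used here.

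Notch2 (chr3:98013527-98150361, plus strand), the other receptor with a known role in crypt progenitors, showed 1.59, 7.19, 4.71 and 5.04 CPM in SI1 to SI4 and 5.54, 7.33, 3.50 and 4.38 CPM in COL1 to COL4. The groups overlapped, and SI1 was the lowest of the 8 libraries. The log2 fold change was -0.16 ± 0.47 (SE; edgeR adjusted p = 0.829), and it was 0.15 without SI1 and 0.03 without COL2.

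Notch3 (chr17:32120820-32166852, minus strand), a receptor known best from pericytes and vascular smooth muscle, had few reads, with 7 to 52 counts in SI and 6 to 20 in COL. Its levels were 0.32, 2.30, 2.64 and 0.69 CPM in SI1 to SI4 and 0.59, 0.37, 0.40 and 0.25 CPM in COL1 to COL4. SI1 lay within the COL range and the other 3 SI libraries lay above it, SI4 (0.69 CPM) only narrowly above COL1 (0.59 CPM). The log2 fold change was 1.87 ± 0.76 (SE; edgeR adjusted p = 0.0872), and without SI1 it was 2.22 (adjusted p = 0.0440). Without any other single library the edgeR adjusted p was 0.104 to 0.234. With the donor block the log2 fold change was 1.55 (edgeR adjusted p = 0.213). Markers of pericytes and smooth muscle (Rgs5, Pdgfrb, Acta2, Myh11, Des) summed to 1.31 to 7.61 CPM in SI, with the highest value in SI2, and to 5.72 to 14.9 CPM in COL. Of these 5 markers, 3 passed the filter, and Pdgfrb was higher in COL (log2 fold change -3.45, edgeR adjusted p = 0.000259). Gm17276 overlaps 488 exon bases of Notch3 on the opposite strand and held 0 to 8 counts. The part of pericytes and smooth muscle, or of Gm17276, in the Notch3 values was not tested.

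Of the 3 ligands, Dll1 and Dll4 were higher in SI, and Jag1 did not pass the threshold. Dll1 (chr17:15367354-15376872, minus strand), a Delta-like ligand of secretory progenitors, reached 30.4, 12.6, 23.3 and 24.4 CPM in SI1 to SI4 and 2.17, 7.58, 2.27 and 4.25 CPM in COL1 to COL4. All SI libraries lay above all COL libraries, and mouse 2 had both the lowest SI and the highest COL value. Dll1 was 5.62-fold higher in SI (log2 fold change 2.49 ± 0.46 SE, edgeR adjusted p = 0.00188). The difference passed the threshold whichever single library was left out, at log2 fold changes of 2.29 to 3.00. The noncoding gene A930024N18Rik overlaps 867 exon bases of Dll1 on the opposite strand and held 18 to 46 counts, against 74 to 671 for Dll1.

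Dll4 (chr2:119325784-119335962, plus strand), which acts together with Dll1 in crypts, stood at 14.5, 20.9, 18.2 and 19.8 CPM in SI1 to SI4 and at 8.65, 5.10, 6.23 and 14.4 CPM in COL1 to COL4. The groups were parted by a narrow margin, since COL4 (14.41 CPM) came close to SI1 (14.50 CPM). Dll4 was 2.13-fold higher in SI (log2 fold change 1.09 ± 0.35 SE, edgeR adjusted p = 0.0367). The call was kept without SI1 (adjusted p = 0.0404) and without COL4 (adjusted p = 0.00852). It was lost without SI2 (adjusted p = 0.0678), SI3 (0.0668), SI4 (0.0914), COL1 (0.0863), COL2 (0.0568) or COL3 (0.0965), all by edgeR at log2 fold changes of 0.92 to 1.11. With scaling by library size alone, which shifted the median over all genes from -0.09 to -0.82, the value for Dll4 was 0.29 (edgeR adjusted p = 0.580), or 1.11 above that median.

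Dll4 is also a ligand of endothelium. Endothelial markers (Pecam1, Cdh5, Kdr, Emcn) summed to 0.10 to 4.47 CPM in SI and 1.32 to 5.84 CPM in COL, and Cdh5 was at 0 counts in 6 of 8 libraries. The 1 of these 4 markers that was tested, Pecam1, was higher in COL (log2 fold change -2.69, edgeR adjusted p = 0.0248), a call lost without SI3, SI4 or COL2. Gm14207, which overlaps 214 exon bases of Dll4 on the opposite strand, held 44 to 173 counts against 82 to 688 for Dll4. The part of either in the Dll4 values was not tested.

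Jag1 (chr2:137081456-137116644, minus strand), a ligand of the Jagged class, showed the opposite order to the Delta-like ligands, with 9.87, 6.53, 4.92 and 5.77 CPM in SI1 to SI4 and 14.6, 12.9, 9.79 and 12.4 CPM in COL1 to COL4. COL was above SI in all 4 mice, and across mice only SI1 and COL3 overlapped. The log2 fold change was -0.87 ± 0.31 (SE; edgeR adjusted p = 0.0562), and without SI1 it was -1.09 (adjusted p = 0.0236).

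Rbpj (chr5:53466152-53657362, plus strand), which encodes the DNA-binding partner of all Notch receptors, lay at 9.56, 8.76, 11.9 and 15.4 CPM in SI1 to SI4 and at 9.59, 12.8, 11.1 and 12.1 CPM in COL1 to COL4. The COL range lay inside the SI range, and the means of 11.4 ± 2.99 CPM (SD, n = 4) in SI and 11.4 ± 1.39 CPM in COL differed by less than the spread between libraries. The log2 fold change was 0.0013 ± 0.28 (SE; edgeR adjusted p = 0.998), and its sign turned under other settings. Of the 50-base stretches of the Rbpj transcript, 24.3% also occur in other transcripts, among them the pseudogene Rbpj-ps3, so its counts are less certain than those of Hes1, Atoh1, Gfi1 and Jag1, which share none.

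Hes1 (chr16:30064384-30067796, plus strand), the repressor induced by Notch signalling, had 4.62, 8.94, 9.78 and 5.54 CPM in SI1 to SI4 and 39.0, 23.4, 15.97 and 14.97 CPM in COL1 to COL4. The groups did not overlap. Within each tissue the libraries formed pairs, with SI2 and SI3 above SI1 and SI4, and COL1 and COL2 above COL3 and COL4, the higher pair being in both tissues the one with the larger mitochondrial share. Hes1 was 3.23-fold higher in COL (log2 fold change -1.69 ± 0.39 SE, edgeR adjusted p = 0.00700). Within the 4 libraries with a large mitochondrial share the mean log2 CPM differed by -1.68, and within the other 4 by -1.60. Leaving out single libraries gave -1.85 to -1.32, past the threshold each time. The difference within libraries of large and then of small mitochondrial share was less even for some other genes. It was -0.64 and -2.33 for Notch1, 2.22 and 0.47 for Notch3, 2.05 and 3.10 for Dll1 and 1.54 and 0.83 for Dll4. For Jag1 it was -1.26 and -0.54, for Gfi1 -2.27 and -2.07, for Notch2 -0.13 and -0.45 and for Rbpj -0.12 and 0.07.

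Atoh1 (chr6:64729125-64731245, plus strand), the factor that commits progenitors to the secretory lineage, had 6.43, 6.89, 3.09 and 6.55 CPM in SI1 to SI4 and 41.7, 28.4, 32.6 and 30.2 CPM in COL1 to COL4. The groups were far apart, from 6.89 CPM in the highest SI library to 28.4 CPM in the lowest COL library, and SI3 lay below the other SI libraries. Atoh1 was 5.79-fold higher in COL (log2 fold change -2.53 ± 0.31 SE, edgeR adjusted p = 0.000142), with the smallest adjusted p of the 10 genes. The mean log2 CPM differed by -2.88 within the libraries with a large mitochondrial share and by -2.26 within the others. Single libraries left out gave -2.63 to -2.30, past the threshold each time.

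Gfi1 (chr5:107716657-107726036, minus strand), a repressor downstream of Atoh1, stood at 1.09, 1.45, 1.12 and 0.50 CPM in SI1 to SI4, from 11 to 24 counts, and at 6.28, 6.53, 2.17 and 5.17 CPM in COL1 to COL4. The groups did not overlap, and COL3 was the lowest COL library. Gfi1 was 4.84-fold higher in COL (log2 fold change -2.28 ± 0.52 SE, edgeR adjusted p = 0.00667), and single libraries left out gave -2.52 to -2.08, past the threshold each time.

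The sequences before the starts of Dll1, Dll4 and Atoh1 are shown because Hes1 is a repressor that binds short DNA motifs and these genes act on either side of the fate switch. Each holds the 250 bases before a RefSeq start, 5′ to 3′ on the gene's strand (GRCm38.p6), namely chr17:15376933-15377182 (minus strand) for the RefSeq start of Dll1 farther upstream, chr2:119325534-119325783 (plus strand) for Dll4 and chr6:64728875-64729124 (plus strand) for Atoh1. Capitals mark matches on either strand to 3 motifs, which are the HES C-site CACGNG, the HES N-box CACNAG and the E-box CAGCTG of basic helix-loop-helix factors, and CACGAG would count as both HES motifs.
Dll1: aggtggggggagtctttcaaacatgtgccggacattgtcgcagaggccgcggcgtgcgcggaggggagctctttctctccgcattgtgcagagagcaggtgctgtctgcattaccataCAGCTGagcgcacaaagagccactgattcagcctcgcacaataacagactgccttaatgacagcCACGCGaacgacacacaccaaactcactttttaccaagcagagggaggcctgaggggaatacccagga
Dll4: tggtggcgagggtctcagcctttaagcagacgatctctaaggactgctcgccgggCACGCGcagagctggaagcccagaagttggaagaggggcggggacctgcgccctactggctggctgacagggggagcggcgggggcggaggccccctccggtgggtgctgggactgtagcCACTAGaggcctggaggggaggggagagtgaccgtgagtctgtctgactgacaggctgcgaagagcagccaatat
Atoh1: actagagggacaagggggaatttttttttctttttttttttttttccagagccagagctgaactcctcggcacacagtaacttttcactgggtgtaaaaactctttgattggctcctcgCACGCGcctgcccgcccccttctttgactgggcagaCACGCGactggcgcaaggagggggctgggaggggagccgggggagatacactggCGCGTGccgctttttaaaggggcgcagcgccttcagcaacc
Atoh1 held 3 matches to CACGNG, at 131, 95 and 41 bases before the start. The window of Dll1 held 1 such match, at 68 bases, and 1 match to CAGCTG, at 132 bases. Before its other RefSeq start, in a window that overlaps an exon of the gene (chr17:15375824-15376073), there was 1 match to CACGNG, at 105 bases. Dll4 held 1 match to CACGNG at 195 bases and 1 to CACNAG at 75 bases. None of the 3 held TGGGAA, the core of the RBPJ motif. Over 32851 RefSeq promoters, 23.5% held CACGNG, 36.7% CACNAG, 13.0% CAGCTG and 21.6% TGGGAA in a window of this length. A match describes the letters and is not evidence of binding. RefSeq promoters were matched for 9 of the 10 genes, and for Hes1 none was used here. HES motifs were not limited to the 3 genes shown. Jag1 held 2 matches to CACGNG, Notch1 held 1 to CACNAG and Notch2 held 1 to each. Notch3 held 1 to CACGNG and 2 to CACNAG, while Gfi1 and Rbpj held neither motif.

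Levels of different genes were compared as CPM per kilobase of the longest transcript. In SI the order of the means was Dll1 (6.32 ± 2.07, SD, n = 4), Hes1 (4.92 ± 1.72), Dll4 (4.90 ± 0.75), Atoh1 (2.71 ± 0.84), Rbpj (2.08 ± 0.54), Jag1 (1.21 ± 0.39), Notch1 (0.83 ± 0.54), Notch2 (0.44 ± 0.22), Gfi1 (0.36 ± 0.14) and Notch3 (0.19 ± 0.14). Dll4 and Atoh1 were the only neighbours in that order whose ranges were apart. In COL the order was Hes1 (15.9 ± 7.55), Atoh1 (15.7 ± 2.78), Dll4 (2.29 ± 1.11), Jag1 (2.21 ± 0.36), Rbpj (2.08 ± 0.25), Notch1 (1.90 ± 0.19), Gfi1 (1.76 ± 0.70), Dll1 (1.14 ± 0.71), Notch2 (0.49 ± 0.16) and Notch3 (0.050 ± 0.017). There, ranges were apart between Atoh1 and Dll4 and between Notch2 and Notch3. Dll1 thus led the order in SI and came eighth in COL, while Hes1 and Atoh1 stood together at the top in COL.

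Ratios within a library do not depend on the scaling of the libraries and are given as log2 ratios of CPM per kilobase, as a description without a test. Hes1 to Atoh1 was 0.05, 0.91, 2.19 and 0.29 in SI1 to SI4 and 0.43, 0.25, -0.50 and -0.48 in COL1 to COL4. The ranges of this ratio overlapped, although each gene alone was higher in COL. Jag1 to Dll1 was -2.27, -1.59, -2.89 and -2.73 in SI1 to SI4 and 2.10, 0.11, 1.46 and 0.89 in COL1 to COL4. Dll1 was above Jag1 in every SI library and below it in every COL library. Notch1 to Notch2 was 0.48, 1.15, 0.96 and 0.57 in SI1 to SI4 and 1.82, 1.31, 2.44 and 2.38 in COL1 to COL4, with no overlap and with Notch1 the higher of both in every library. Dll1 to Dll4 was 1.13, -0.67, 0.42 and 0.37 in SI1 to SI4 and -1.93, 0.64, -1.39 and -1.70 in COL1 to COL4, and mouse 2 had the sign opposite to the other mice in both tissues.

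**Figure D2:**
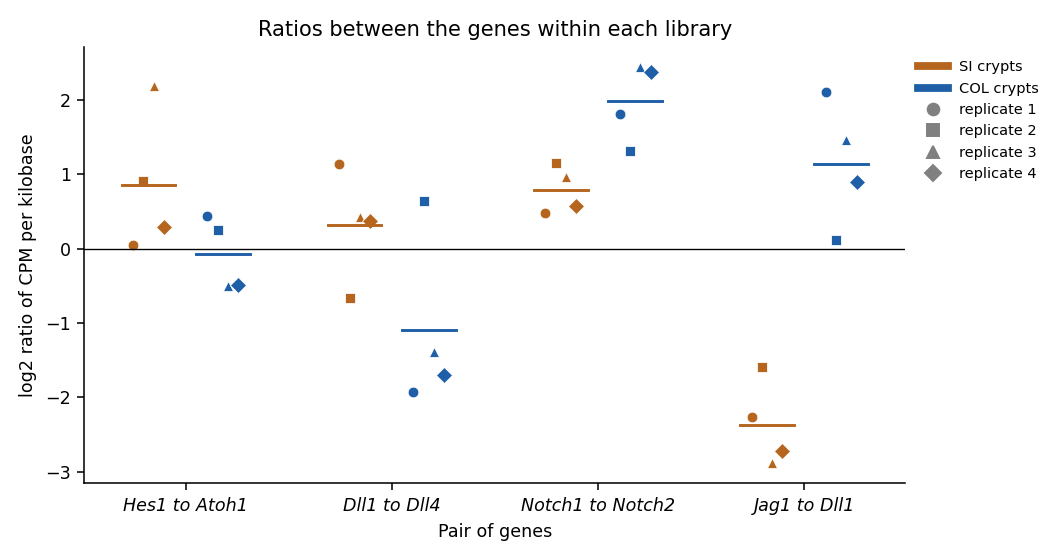
Log2 ratio of CPM per kilobase between 4 pairs of the genes (vertical axis) in every library, with SI in orange, COL in blue, a symbol for each replicate (the donor mouse) and a bar for the mean. The ratio of Jag1 to Dll1 is below 0 in all SI libraries and above 0 in all COL libraries, while that of Hes1 to Atoh1 overlaps.

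A list of 47 other Notch pathway genes showed no common direction. Of its 38 genes tested, 12 passed the threshold (31.6%, against 28.4% of all genes), 7 higher in SI and 5 higher in COL, and the median log2 fold change was 0.07. With scaling by library size alone, 16 passed (4 higher in SI, 12 higher in COL), beside 40.7% of all genes (1115 toward SI, 4788 toward COL). Leaving out single libraries gave 6 to 12, with 6 (4 higher in SI) without SI4, where 20.7% of all genes passed, and 6 (5 higher in SI) without COL1, where 21.2% did. With the donor block 11 passed, without Lfng and Furin and with Maml3, a coactivator (log2 fold change -2.48, edgeR adjusted p = 0.0272, and -2.12 with an adjusted p of 0.0561 without the block). Numb, Itch, Hes2, Olfm4 and Rita1 were called whichever library was left out. The other 9 genes, Dll3, Aph1c, Numbl, Nrarp, Hes3, Hes5, Hes7, Hey1 and Hey2, had too few counts to be tested.

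The group listed as targets held Olfm4 and relatives of Hes1, and whether Notch induces each of them in these crypts was not tested. Of its 9 genes, 4 had enough counts to be tested, and all 4 were called, against 28.4% of all genes. Olfm4 and Heyl had few reads in most COL libraries and passed the filter on low counts through SI, where they were high. Passing in this way favours a call, so the count is a description only. Hes2, a relative of Hes1, had 84.1, 60.5, 59.5 and 141.1 CPM in SI1 to SI4 and 2.61, 4.72, 6.18 and 4.42 CPM in COL1 to COL4, the reverse order to Hes1 without overlap (log2 fold change 4.27 ± 0.40 SE, edgeR adjusted p = 2.83e-05). Olfm4, a Notch-responsive marker of small intestinal stem cells, had 9.74, 161, 254 and 180 CPM in SI1 to SI4 and 0 to 3.50 CPM in COL, from 0 to 167 counts. Its fitted log2 fold change was 7.24 ± 1.48 (SE; edgeR adjusted p = 0.00354), and its value in SI1 was far below the other SI libraries. Of its COL reads, 167 were in COL4 and 0 to 6 in the other libraries, and without COL4 the fitted log2 fold change was 10.83 (edgeR adjusted p = 0.00026). Heyl, a relative of the Hes factors with 0 to 29 counts per library in COL and 13 to 62 in SI, had a log2 fold change of 3.39 (edgeR adjusted p = 0.0379), a call kept only without SI1 or COL4 when single libraries were left out. Hes6, an antagonist of Hes1, was higher in COL at 28.4, 19.4, 12.9 and 9.99 CPM in COL1 to COL4 against 6.32 to 9.01 CPM in SI (log2 fold change -1.27, edgeR adjusted p = 0.0193), a call lost without SI4 or COL1.

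Of the inhibitors and turnover factors, 2 of 7 tested were called, near the 28.4% of all genes. Numb, which antagonises Notch receptors, had 221, 141, 137 and 202 CPM in SI1 to SI4 and 16.3, 34.6, 35.4 and 30.7 CPM in COL1 to COL4 (log2 fold change 2.58 ± 0.34 SE, edgeR adjusted p = 0.000193). Itch, a ubiquitin ligase that acts on Notch, had 101 to 156 CPM in SI and 36.6 to 46.2 CPM in COL (log2 fold change 1.68, edgeR adjusted p = 0.000537). Both were higher in SI without overlap.

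Of the enzymes that glycosylate the receptors, 3 of 5 were called (28.4% of all genes), and each of these calls was lost without some single libraries. Pofut1, which adds O-fucose, had 7.30 to 9.38 CPM in SI and 13.9 to 18.9 CPM in COL (log2 fold change -0.95, edgeR adjusted p = 0.0155), a call lost without SI4 or COL1. Among the Fringe enzymes, which extend that fucose and so shift the preference for ligands, Lfng was higher in COL (log2 fold change -1.90, edgeR adjusted p = 0.0478) and Rfng was higher in SI (log2 fold change 1.08, edgeR adjusted p = 0.0404). Lfng had 0.23 to 2.08 CPM in SI and 2.59 to 7.04 CPM in COL, and Rfng had 15.6 to 27.3 CPM in SI and 6.20 to 14.0 CPM in COL. When single libraries were left out, the call for Lfng was kept only without SI3 or COL2 and that for Rfng only without SI3, COL1 or COL2. With the donor block Lfng was not called (edgeR adjusted p = 0.0824), and with scaling by library size alone Rfng was not (log2 fold change 0.36, edgeR adjusted p = 0.416).

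Single genes were called in 3 further groups, each at a share below the 28.4% of all genes. The shares were 11.1% for receptor cleavage, 25.0% for ligand activation and 14.3% for nuclear cofactors. Furin, the protease that processes receptors before they reach the surface, was called among 9 cleavage genes tested, with 27.4 to 65.2 CPM in SI and 22.2 to 26.1 CPM in COL (log2 fold change 0.95, edgeR adjusted p = 0.0276). Its call was kept only without SI2, SI3 or COL2 when single libraries were left out, and not with the donor block (edgeR adjusted p = 0.0597) or with scaling by library size alone (log2 fold change 0.21, edgeR adjusted p = 0.581). Neurl1a, a ubiquitin ligase that activates ligands, was called among 4 such genes, with 0.05 to 1.03 CPM in SI and 1.26 to 6.71 CPM in COL (log2 fold change -2.90, edgeR adjusted p = 0.0323), a call kept only without SI2, COL3 or COL4. Rita1, which exports RBPJ from the nucleus, was called among 7 nuclear cofactors, with 2.84 to 5.98 CPM in SI and 14.0 to 16.3 CPM in COL (log2 fold change -1.71, edgeR adjusted p = 0.00162). The other receptor and ligand tested, Notch4 and Jag2, did not pass the threshold (log2 fold changes -1.06 and -1.97, edgeR adjusted p = 0.381 and 0.0698).

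**Figure D3:**
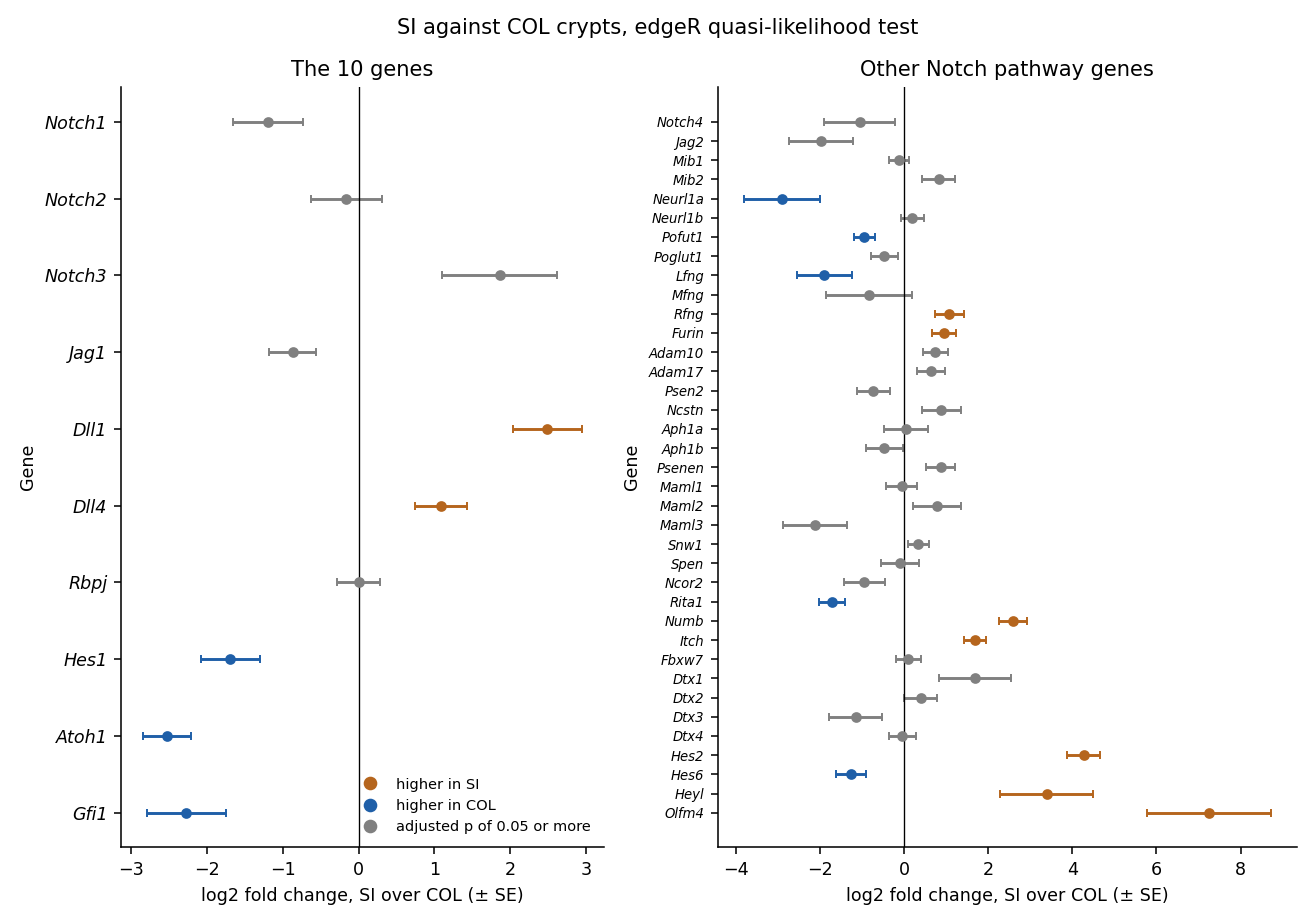
Log2 fold change of SI over COL (horizontal axis, ± SE, edgeR, n = 4 libraries each) for the 10 genes and for 37 of the 38 other Notch pathway genes tested, in orange where called higher in SI, blue where called higher in COL and grey otherwise. Dll1 and Dll4 lie to the right of 0 and Hes1, Atoh1 and Gfi1 to the left, while the other genes scatter to both sides.

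Of 19 transcription factors and Atoh1 corepressors of the secretory lineage that were tested, 7 were called (36.8%, against 28.4% of all genes in either direction). All 7 were higher in COL, a direction called for 12.9% of all genes. Without SI1, Neurog3 was called as well, higher in SI. The median log2 fold change of the 19 genes was -0.11, since the other 12 lay near 0 or to either side. The 7 were Creb3l1 (log2 fold change -4.38 ± 0.34 SE, edgeR adjusted p = 1.28e-05), Foxa1 (-4.17 ± 0.43, adjusted p = 4.79e-05), Creb3l4 (-3.44 ± 0.37, adjusted p = 6.26e-05), Spdef (-3.37 ± 0.42, adjusted p = 0.000146), Cbfa2t3 (-3.18 ± 0.58, adjusted p = 0.00178), Sox9 (-2.98 ± 0.40, adjusted p = 0.000241) and Foxa2 (-2.88 ± 0.50, adjusted p = 0.00135). Their SI and COL values did not overlap, and all 7 were called whichever single library was left out. Spdef, which matures goblet and Paneth cells downstream of Atoh1, had 6.21, 6.59, 12.2 and 8.61 CPM in SI1 to SI4 and 99.0, 32.6, 102 and 114 CPM in COL1 to COL4. Creb3l1 encodes a factor of the secretory pathway held in the endoplasmic reticulum membrane, and had 4.85 to 8.42 CPM in SI and 113 to 204 CPM in COL. Sox9, needed for Paneth cells and also expressed in crypt progenitors, had 3.03, 9.97, 10.04 and 7.10 CPM in SI1 to SI4 and 85.8, 51.1, 43.7 and 57.0 CPM in COL1 to COL4, with SI1 the lowest of all.

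The 12 that were not called were Neurog3, Neurod1, Insm1, Pax4 and Pax6 of the enteroendocrine lineage, Pou2f3 and Gfi1b of tuft cells, and Sox4, Klf4, Bhlha15, Xbp1 and Cbfa2t2. Their log2 fold changes ran from -0.81 (Sox4) to 1.75 (Neurog3). Neurog3, the factor that starts the enteroendocrine lineage, was singled out after its values were seen, with 0, 2.42, 7.25 and 2.98 CPM in SI1 to SI4 and 0.31 to 1.34 CPM in COL (edgeR adjusted p = 0.236). Without SI1 its log2 fold change was 2.18 (edgeR adjusted p = 0.0283). SI1 held no read of Neurog3, Pax4 or Bhlha15.

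**Figure D4:**
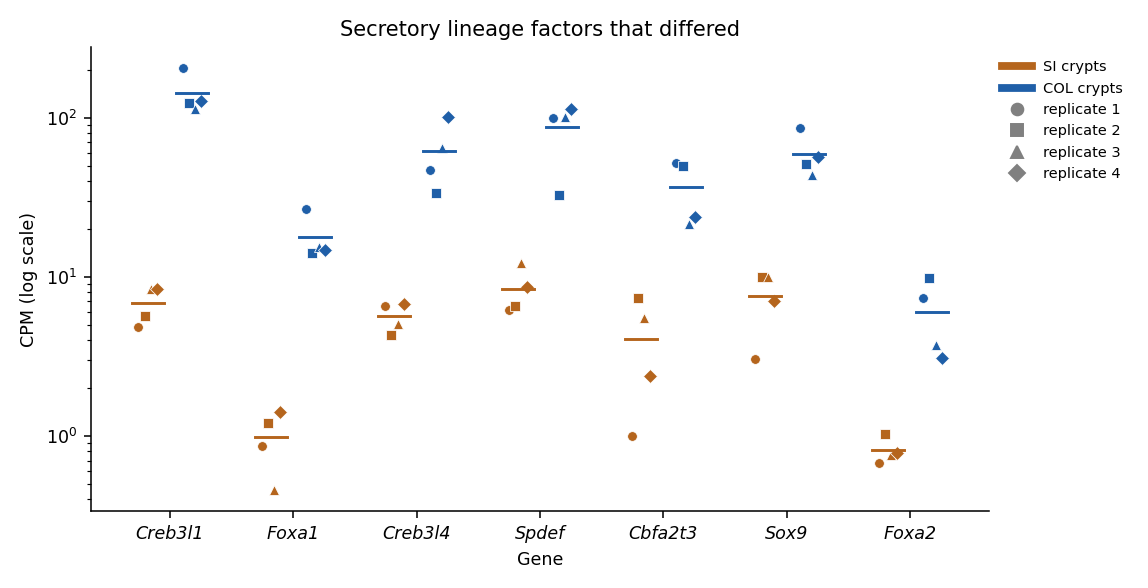
CPM (log axis) of the 7 genes called among the secretory lineage factors and Atoh1 corepressors, in every library. SI is in orange and COL in blue, with a symbol for each replicate (the donor mouse) and a bar for the mean. For each of the 7 genes all COL points lie above all SI points.

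Markers of secretory cells did not all share the direction of Atoh1. Goblet markers (Muc2, Tff3, Fcgbp, Zg16, Clca1, Agr2, Spink4) summed to 2866 to 10946 CPM in SI and 12761 to 24152 CPM in COL, with 3 of 7 higher in COL (12.9% of all genes). Without Muc2 the sums overlapped, at 2476 to 9959 CPM in SI and 4867 to 10616 CPM in COL. The 3 were Muc2, the main gel-forming mucin (log2 fold change -4.10, edgeR adjusted p = 0.000676), Agr2 (-3.83, adjusted p = 0.000801) and Spink4 (-2.79, adjusted p = 0.00105). The other 4 goblet markers were not called, with log2 fold changes of 0.86 (Tff3), 0.66 (Fcgbp), 0.88 (Zg16) and -0.79 (Clca1). Both deep crypt secretory markers, Kit and Reg4, were higher in COL (log2 fold changes -3.04 and -1.59, edgeR adjusted p = 0.000267 and 0.0147). Reg4 was higher in SI in mouse 1 (84.2 against 74.1 CPM), and its call was lost with the donor block (edgeR adjusted p = 0.0508) and without SI4 (0.0509). Paneth markers summed to 564 to 3965 CPM in SI and 17.9 to 83.0 CPM in COL, with 5 of 6 higher in SI (15.5% of all genes) and Ang4 as the exception. Enteroendocrine markers summed to 244 to 309 CPM in SI and 239 to 767 CPM in COL, with 2 of 6 higher in COL (12.9% of all genes), and tuft markers to 38.5 to 69.0 CPM in SI and 38.2 to 49.6 CPM in COL, with 0 of 3 tested called. Leukocyte markers summed to 31.5 to 75.6 CPM in SI and 12.3 to 32.8 CPM in COL, with 2 of 4 tested higher in SI (15.5% of all genes), Cd8a and Cd3e. The call for Cd3e was lost without SI1, SI4, COL1, COL2 or COL3. The part of these cell types in the values of the 10 genes was not tested.

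The genes whose centred log2 CPM over the 8 libraries lay closest to that of Atoh1, among 10637 genes, were Foxa3, Tnfrsf1b, Mvd, Map1lc3a and Stk38l, with root mean square differences of 0.23, 0.28, 0.30, 0.32 and 0.32. Foxa3 is a forkhead factor like Foxa1 and Foxa2. For Hes1 they were Gga2, Pgls, Eif3f, Armc10 and Acbd6, at 0.21, 0.25, 0.27, 0.27 and 0.27. The size of the difference between SI and COL enters this measure, so genes with a like difference between the tissues lie close by it. It is given as a description.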

How the data were processed

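RNA-Seq of freshly isolated crypts was used, with 4 SI and 4 COL libraries from 4 mice. Per the labels, reads were trimmed with Trimmomatic 0.36 and counted with STAR 2.5.2b, and the authors deposited raw counts per Ensembl gene on mm10. The annotation release and the strand setting are not given in the sources used here. The labels also name mm9. Symbols and coordinates came from GENCODE vM21 (GRCm38), which holds 45143 of the 45706 genes, and promoters from RefSeq (GRCm38.p6).

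The counts were tested with edgeR 4.0.16 (R 4.3.3) by the quasi-likelihood test of SI against COL, after filterByExpr (minimum count 10, minimum total 15) and TMM scaling, with Benjamini-Hochberg adjustment over the 14491 genes tested and a threshold of 0.05. The methods name limma and the threshold of 0.05 for this comparison, without a normalization, filter or block. EdgeR was used because the files hold counts, and limma 3.58.1 (voom) and DESeq2 1.42.0 were alternatives, as were scaling by library size alone, a block for the donor mouse, no filter, at least 10 counts in every library, the mitochondrial share as a covariate and leaving out each library. CPM are counts over the TMM-scaled sum of the tested genes, log2 CPM used a prior count of 2, and positive log2 fold changes stand for higher values in SI. Standard errors were derived from the coefficient and the F statistic.

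The 10 genes and all lists were chosen with earlier results of these data known. Named genes are the 10, every list gene past the threshold up to 4 per direction and group, list genes with too few counts, and the 5 genes most like Hes1 and Atoh1. Some genes of the lists are not reported here. Motifs were searched in the 250 bases before a start, and shared sequence over 50-base stretches of the longest transcript.

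The same donor number marks the SI and the COL library of a mouse in the labels. Once tissue means were subtracted, both libraries of a mouse correlated across genes at -0.24, 0.39, -0.08 and 0.33 for mice 1 to 4 (0.10 on average). Libraries of different mice gave -0.03 on average, from -0.41 (SI2 with COL4) to 0.27 (SI1 with COL4). The positive values within a mouse were those of mice 2 and 4, in which both libraries were alike in mitochondrial share. The donor mouse and this share were not told apart. Replicates of a tissue differed by more than sampling noise. With 4 libraries per tissue the spread between mice limits the precision, and counting error adds to it for Notch3 and Gfi1.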

Additional observations from a re-analysis of the deposited data

Results flagged for a closer look

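The level of Atoh1 in SI3 was 3.09 CPM, against 6.43, 6.89 and 6.55 CPM in SI1, SI2 and SI4. On the log2 scale its gap to the nearest of the other libraries was 0.914 of the range of the 4 SI libraries, above Dixon's 95% critical value of 0.829. This test was made for 20 groups (10 genes in 2 tissues), and chance exceeds the critical value in about 1 of 20. Without SI3, Atoh1 was still higher in COL, as it was with any other single library left out.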

How the results depend on the processing

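Dll1, Hes1, Atoh1 and Gfi1 kept their direction and their call under all 16 alternatives. DESeq2 called 8 of the 10 genes (35.3% of all genes) where edgeR called 5 (28.4%), adding Notch1, Notch3 and Jag1. The other alternatives that kept all libraries called 5 to 7, and leaving out single libraries 4 to 7. Scaling by library size alone called 6 (1 higher in SI, 5 higher in COL) and, over all genes, 5903 (1115 higher in SI, 4788 higher in COL) in place of 4116 (2253 and 1863). Leaving out single libraries gave 6 to 12 genes of the pathway list, 7 to 8 of the secretory list and 3167 to 4480 genes in all.

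Pairing of the libraries by donor mouse as a block changed, among the 10 genes, only the call for Notch1 (log2 fold change -1.46), and gave 4072 genes in all, of which 3743 were shared with the same direction. With it, 11 pathway genes (Maml3 added, Lfng and Furin lost) and 7 secretory factors were called.

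Signs turned for Notch2 and Rbpj, which no alternative called. Notch2 ranged from -0.43 to 0.15 with single libraries left out. Rbpj gave -0.73 with library size alone, which is 0.10 above the median of all genes in that fit, -0.026 with DESeq2, -0.0023 with limma-voom, -0.024 with the donor block, -0.038 without a filter, -0.12 with at least 10 counts in every library, -0.009 with the mitochondrial covariate, and -0.19 to 0.13 with single libraries left out. The cause was not tested. Notch3 was under the stricter of the filters and has no value there.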

Other observations

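In each tissue, Ncstn, Psenen and Aph1a, components of gamma-secretase, the enzyme that frees the Notch intracellular domain, were higher in both libraries with a small mitochondrial share than in both with a large one. They were singled out after their values were seen, and the share of all genes with this pattern was not counted. Over all genes tested, libraries of a tissue also differed less when alike in mitochondrial share. The mean chi-square per gene between such libraries was 101 and 110 in SI, against 339 to 673 for the other pairs. In COL it was 91.7 and 289, against 523 to 1244. The pattern thus need not be particular to this enzyme. Psen2 and Aph1b, of the same enzyme, followed it in COL but not in SI. In SI1 and SI4 against SI2 and SI3, Psen2 had 3.85 and 5.81 against 8.64 and 9.13 CPM. Aph1b had 4.58 and 2.56 against 2.78 and 7.76 CPM. Of the 50-base stretches of Aph1a and Psenen, 47.9% and 39.0% also occur in other transcripts. Ncstn, the substrate receptor of the enzyme, had 388 and 399 CPM in SI1 and SI4 and 240 and 221 CPM in SI2 and SI3, and 255 and 262 CPM in COL3 and COL4 against 89.9 and 69.9 CPM in COL1 and COL2. Psenen, another subunit, had 139 and 119.7 CPM in SI1 and SI4, 66.1 and 86.0 CPM in SI2 and SI3, 72.0 and 72.9 CPM in COL3 and COL4, and 46.1 and 34.5 CPM in COL1 and COL2. Between the tissues, neither Ncstn nor Psenen passed the threshold (log2 fold changes 0.88 and 0.86, edgeR adjusted p = 0.187 and 0.0774). With the mitochondrial share as a covariate, 18 pathway genes were called (12 higher in SI, 6 higher in COL) in place of 12, while over all genes the calls went from 4116 (28.4%) to 5457 (37.7%; 3108 higher in SI, 2349 higher in COL). The part of RNA quality or of the cells sampled in these values was not tested.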
